A study of Mus musculus with 40 samples.

Results

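The genes examined are those of the SPARC family, secreted glycoproteins of the extracellular matrix. The family here comprises Sparc, Sparcl1, Smoc1, Smoc2, Spock1, Spock2, Spock3 and Fstl1. Members were all probe sets of the deposited array table that name 1 of these 8 genes and no other gene, which gave 11 of 45141 probe sets for 7 genes. Spock1 was not analysed here. The set was built around Sparcl1, a gene chosen by its log2 values in the cultured cells, where it was lower with OTX015; the rest were taken by family membership. The Sparcl1 values in that comparison are therefore a description without a test, and so is any Sparcl1 contrast that uses the cultured cells.

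B16F10 is a melanoma line of C57BL/6 origin. The 6 label groups were compared, each drug against its own controls. The cultured line was measured with OTX015 (4 samples) and without it (4). Tumours grown under the skin of C57black6J mice, injected at 8 weeks of age, came from mice given OTX015 by mouth (10) and their untreated controls (11), and from mice given guadecitabine into the peritoneum (6) and their untreated controls (5). OTX015 blocks the bromodomains of BET proteins, which bind acetylated histones and promote transcription, and guadecitabine is a decitabine prodrug that depletes DNA methyltransferases. The labels give no dose, duration or sex, and do not say whether replicates were separate cultures or animals, so p-values measure only the spread between these samples. All groups rest on this 1 cell line, and a tumour sample holds host cells as well.

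SPARC family proteins share an extracellular calcium-binding module and a follistatin-like module, and most act on cell adhesion and matrix assembly rather than as structural parts of the matrix. Sparc binds collagens and is abundant in melanoma and in remodelling stroma. Sparcl1, also called hevin, is its closest relative and is best known from vessel walls and astrocytes. The Smoc proteins sit in basement membranes, the Spock proteins (testicans) are proteoglycans, and Fstl1 binds ligands of the bone morphogenetic protein and TGF-beta family.

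The promoters of Sparc and Fstl1 are shown because these genes moved in opposite directions under OTX015 in culture and because guadecitabine acts through cytosine methylation at CpG sites. Both sequences are RefSeq windows of 300 bases (build GRCm38.p6) that run from upstream of the gene start to just inside the gene, on the coding strand. Capitals mark CpG. The Sparc window lies at chr11:55420031-55420330 (minus strand) and the Fstl1 window at chr16:37776805-37777104 (plus strand).

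Sparc: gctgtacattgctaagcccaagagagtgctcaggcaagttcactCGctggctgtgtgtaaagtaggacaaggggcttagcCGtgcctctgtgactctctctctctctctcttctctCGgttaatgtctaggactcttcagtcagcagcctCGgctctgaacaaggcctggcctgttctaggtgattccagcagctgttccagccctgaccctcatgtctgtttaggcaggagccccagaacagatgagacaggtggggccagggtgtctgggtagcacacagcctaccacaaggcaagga

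Fstl1: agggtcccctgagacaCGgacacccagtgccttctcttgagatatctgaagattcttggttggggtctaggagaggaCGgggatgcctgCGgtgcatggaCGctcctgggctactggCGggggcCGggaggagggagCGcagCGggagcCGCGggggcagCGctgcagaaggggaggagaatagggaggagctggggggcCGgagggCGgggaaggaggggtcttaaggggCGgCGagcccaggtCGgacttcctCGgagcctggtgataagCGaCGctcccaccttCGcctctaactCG

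The Sparc window held 4 CpG sites and the Fstl1 window 21. The median was 7 over 32851 RefSeq mouse promoter windows of the same length, with a whole chromosome left out. Of those windows, 68.6% held at least 4 and 24.8% at least 21. Neither window held CACGTG (an E-box, present in 7.15% of windows), TGANTCA (the AP-1 motif, 7.81%) or TATAAA (13.6%), each searched on both strands. Methylation was not measured, so these counts describe the sequence alone.

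Values are log2 of RMA-summarised array intensities, so a difference of 1 is a 2-fold change. Levels of different probe sets are not set against each other. The background level was 4.46, the 95th percentile of the means of 83 probe sets for olfactory and vomeronasal receptors. Of the 11 member probe sets, 6 lay above it over all 40 arrays: the single probe sets of Sparcl1 and Smoc1 (Smoc1 only just, at a mean of 4.49) and both probe sets each of Sparc and Fstl1. The 5 probe sets of Smoc2, Spock2 and Spock3 lay below it. Arrays of 1 group correlated at 0.94 to 0.997 over all probe sets. Array means were 4.35 to 4.39 in OTX015-treated tumours and 4.55 to 4.64 on the other 30 arrays, so the OTX015 tumour comparison was made after quantile normalization, which gives every array the same distribution. On deposited values its median difference over all probe sets was -0.21. All 10 melanocyte markers were above background, and the log2 of their summed level was 14.5 to 14.9 in control tumours of the OTX015 experiment and 14.8 to 14.9 in control cells.

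In cultured B16F10 cells, OTX015 took Sparcl1 to background, while Sparc rose and Fstl1 fell. The comparison asks what the drug changes in the melanoma cells themselves. Sparcl1 had log2 values of 3.69, 3.70, 3.66 and 3.55 in OTX015 cells, against 8.61, 8.80, 8.41 and 8.57 in control cells. All 4 treated samples lay below background and all 4 controls far above it. The mean was 3.65 ± 0.067 in OTX015 cells and 8.60 ± 0.16 in control cells (SD, n = 4 each), a difference of -4.94. With the treated mean set to the background level, Sparcl1 was at least 17.6-fold lower.

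Sparc, the closest relative of Sparcl1, moved the other way. On probe set 1416589_PM_at it had 11.99, 11.96, 12.02 and 11.99 in OTX015 cells, against 10.48, 10.62, 10.49 and 10.58 in control cells. The groups did not overlap, and the difference was 1.45 ± 0.06 (SE), or 2.73-fold (limma adjusted p = 4.19e-08). The second Sparc probe set, 1448392_PM_at, had 11.20, 11.00, 11.07 and 10.96 in OTX015 cells, against 9.44, 9.47, 9.44 and 9.33 in control cells. It rose 3.11-fold (1.64 ± 0.07 SE, limma adjusted p = 6.07e-08), again without overlap.

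Fstl1 was lower on both of its probe sets. Probe set 1416221_PM_at had 6.78, 6.33, 6.39 and 6.43 in OTX015 cells, against 7.28, 7.52, 7.39 and 7.42 in control cells. The difference was -0.92 ± 0.10 (SE), which is 1.89-fold lower in OTX015 cells (limma adjusted p = 4.33e-05). Probe set 1448259_PM_at had 6.41, 6.04, 6.08 and 6.08 in OTX015 cells, against 6.87, 6.79, 6.95 and 6.81 in control cells. Its difference was -0.70 ± 0.09 (SE, limma adjusted p = 0.000115), and the call was lost when all 6 groups shared 1 fit (adjusted p = 0.213). No treated sample reached the lowest control on either probe set.

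**Figure D1:**
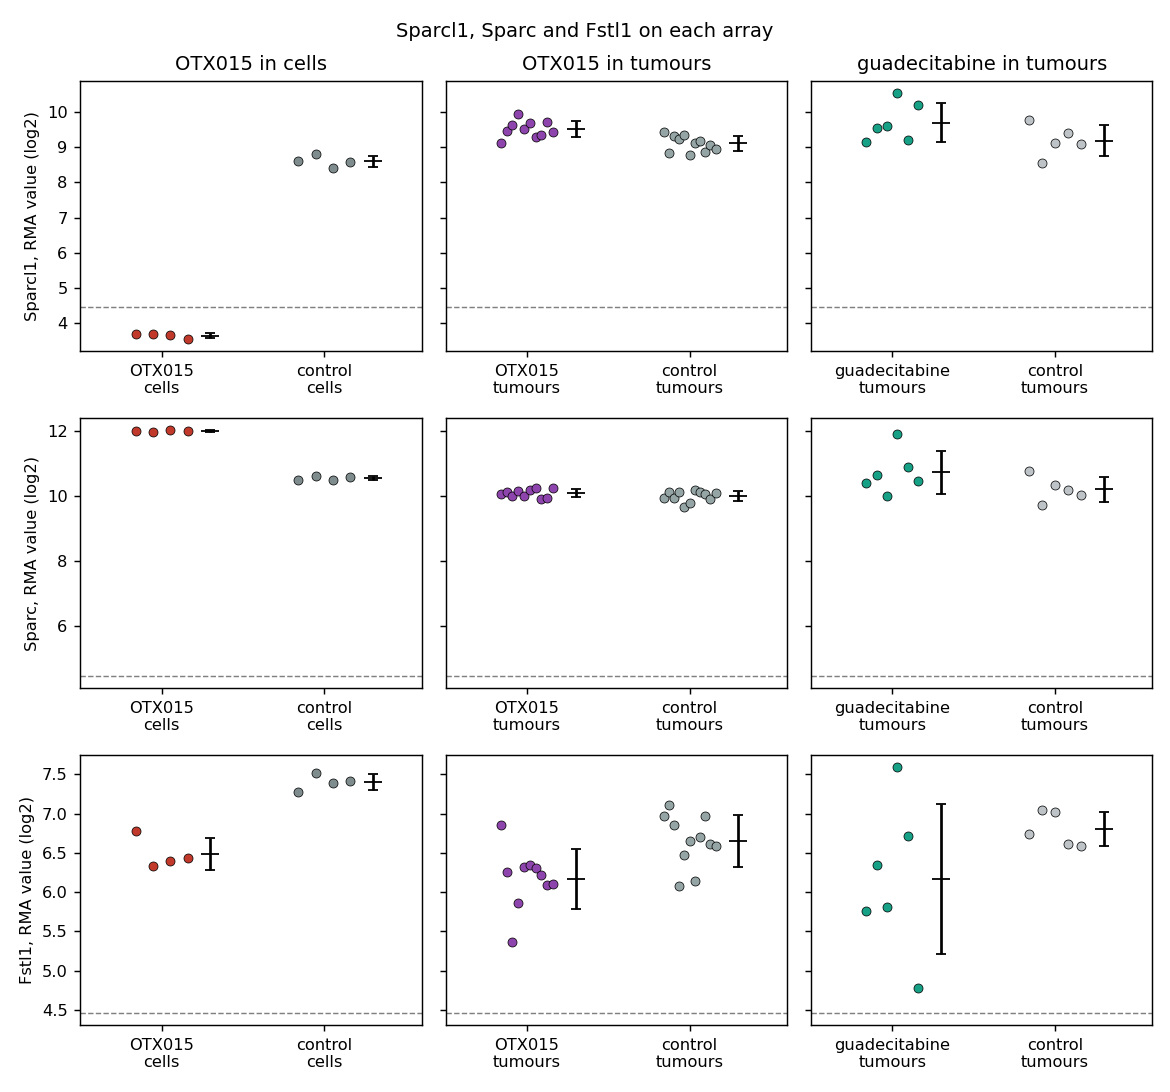
Values on each array (log2 RMA value) of Sparcl1, Sparc (1416589_PM_at) and Fstl1 (1416221_PM_at) in the 3 drug comparisons, treated arrays left and their controls right. Points are arrays, bars are mean and SD, and the dashed line is the background level of 4.46. OTX015 tumours and their controls are quantile-normalized. The 4 OTX015 cell samples of Sparcl1 lie between 3.55 and 3.70, under the line, whereas every tumour array lies above 8.5.

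Smoc1 was at the background level and did not pass the test in cells. It had 4.30, 4.39, 4.27 and 4.27 in OTX015 cells, against 4.22, 4.39, 4.59 and 4.29 in control cells, and the groups overlapped (-0.06 ± 0.08 SE, limma adjusted p = 0.656). The 5 probe sets of Smoc2, Spock2 and Spock3 had values of 2.09 to 3.76 and differences of -0.10 to 0.04, and none passed. With Sparcl1 set aside, 4 of 10 member probe sets were called (2 higher and 2 lower) and 4 did not overlap between groups. Over all probe sets 29.1% were called (13.7% higher, 15.3% lower) and 30% did not overlap, and 54.7% of the probe sets above background were called. Of the 5 member probe sets above background other than that of Sparcl1, 4 were called.

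In tumours, Sparcl1 was not lower with OTX015. It stood slightly higher in OTX015 tumours than in control tumours after normalization, Fstl1 was lower on 1 of its probe sets, and neither Sparc probe set passed the test. Sparcl1 had a lowest, median and highest value of 9.12, 9.48 and 9.94 in OTX015 tumours, against 8.79, 9.13 and 9.44 in control tumours. The ranges overlapped, but all 10 treated tumours lay above the control mean and 6 above every control. The mean was 9.51 ± 0.24 in OTX015 tumours (n = 10) and 9.11 ± 0.22 in control tumours (n = 11, SD), a difference of 0.41 ± 0.10 (SE) or 1.33-fold (limma adjusted p = 0.00483). On the deposited values, where all levels of the treated tumours lie lower, the difference was 0.20 and did not pass (adjusted p = 0.139). Centred on each array's median it was 0.44 (adjusted p = 0.0145).

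Fstl1 on 1416221_PM_at had a lowest, median and highest value of 5.36, 6.24 and 6.85 in OTX015 tumours, against 6.08, 6.65 and 7.11 in control tumours. Of the 10 treated tumours, 9 lay below the control mean, with overlapping ranges. The difference was -0.48 ± 0.14 (SE, limma adjusted p = 0.026). It did not pass with median centring (-0.44, adjusted p = 0.086) or with all 6 groups in 1 fit (adjusted p = 0.0814). The other Fstl1 probe set had a median of 6.18 in OTX015 tumours, against 6.42 in control tumours, and a difference of -0.26 ± 0.13 (SE, limma adjusted p = 0.189). It passed only on the deposited values among the alternatives tried (-0.49, adjusted p = 0.00946).

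Sparc on 1416589_PM_at had a lowest, median and highest value of 9.91, 10.09 and 10.26 in OTX015 tumours, against 9.68, 10.05 and 10.18 in control tumours. The groups overlapped almost wholly (0.09 ± 0.06 SE, limma adjusted p = 0.383). On 1448392_PM_at the values were 8.85, 9.03 and 9.36 in OTX015 tumours, against 8.55, 8.81 and 9.28 in control tumours. All 10 treated tumours lay above the control mean, but the difference of 0.22 ± 0.08 (SE) did not pass (limma adjusted p = 0.0796). Without control tumour replicate 2 it did (0.26, adjusted p = 0.0227). On the deposited values the Sparc differences turned to -0.10 and -0.0042, so no direction is given for Sparc.

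Smoc1 had a median of 4.69 in OTX015 tumours, against 4.58 in control tumours (difference 0.03 ± 0.08 SE, limma adjusted p = 0.862), and on the deposited values -0.23 (adjusted p = 0.0137). Of the 5 probe sets below background, 1 for Smoc2 was called at a difference of 0.14 ± 0.04 (SE, limma adjusted p = 0.0174), which was -0.04 on the deposited values. The values of these 5 probe sets ran from 2.02 to 4.00. In all, 3 of 11 member probe sets were called (2 higher, 1 lower), against 16.7% of all probe sets (8.6% higher, 8.07% lower), and none separated the groups without overlap, against 1.47% of all.

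Macrophage marker levels moved with the OTX015 tumour comparison. Of 10 macrophage markers, 7 were called lower in OTX015 tumours, with a median difference of -1.12, and the log2 of their summed level was 7.77 to 10.0 in OTX015 tumours, against 9.23 to 11.5 in control tumours. Of the pericyte and smooth muscle markers, 0 of 7 measured were called, and the summed level was 6.81 to 7.21 in OTX015 tumours, against 6.78 to 7.32 in control tumours. Among 10 fibroblast markers 1 was called, higher, and among 10 endothelial markers 1, higher. Of all named genes, 8.93% were called higher and 7.83% lower. Above background over all arrays lay 3 of 10 fibroblast, 2 of 10 endothelial and 2 of 7 pericyte and smooth muscle markers. Few calls there do not show unchanged levels. Lower calls were also made for 2 of 10 T and NK cell and 1 of 2 Schwann and nerve markers. For melanocyte markers 1 of 10 was called, higher. Whether macrophage RNA had a part in the member differences was not tested. In such bulk samples, fewer cells of a type and less RNA per cell cannot be told apart.

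**Figure D2:**
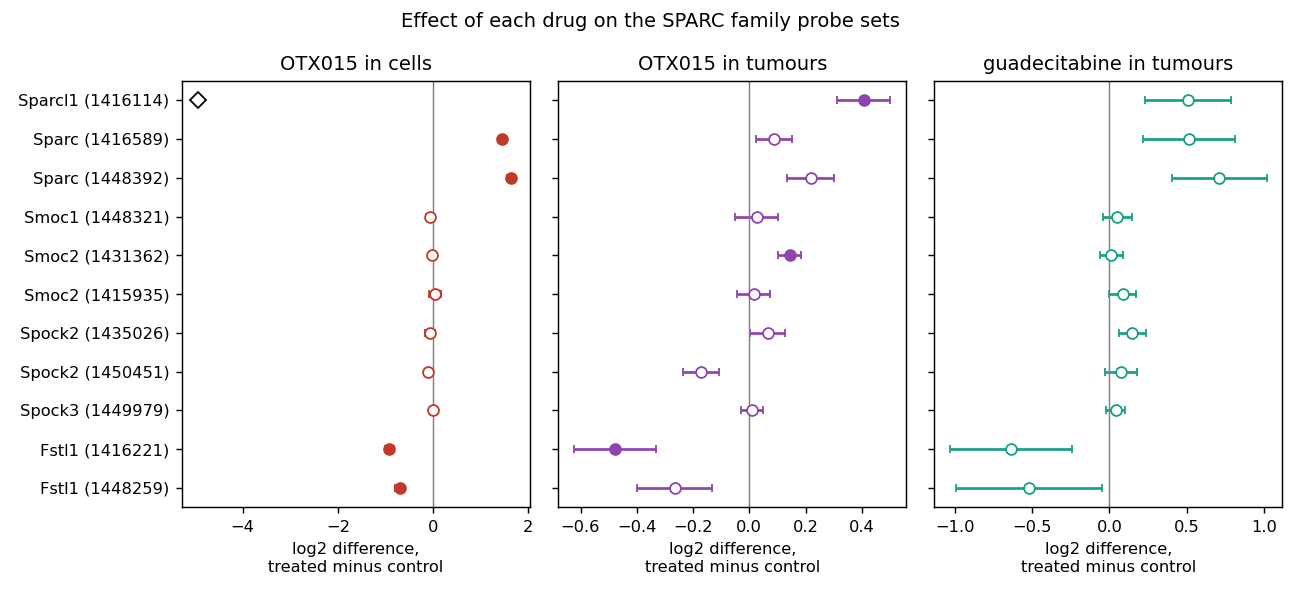
Log2 difference, treated minus control, of each member probe set under each drug, with SE bars. Filled points passed limma at an adjusted p under 0.05, open circles did not, and the diamond is Sparcl1 in cells, given without a test. Axes differ between panels. Sparcl1 lies at -4.94 in cells and at 0.41 in OTX015 tumours, and all guadecitabine points are open.

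The difference between the effect of OTX015 in tumours and its effect in cells was tested directly in 1 fit of the 4 groups after quantile normalization. For Sparc the effect was 0.08 in tumours and 1.53 in cells on 1416589_PM_at, a difference between effects of -1.45 ± 0.10 (SE, limma adjusted p = 1.0e-11). On 1448392_PM_at it was 0.21 in tumours and 1.77 in cells, a difference of -1.56 ± 0.14 (SE, limma adjusted p = 1.28e-09). The rise of Sparc in cultured cells thus differed from the change in tumours. For Sparcl1 the effect was 0.40 in tumours and -4.67 in cells, a gap of 5.07 that is described and not tested. The treated cells lay below background, so the size of both values depends on that floor; with those cells set to the background level, Sparcl1 was at least 4.14 lower in OTX015 cells on the deposited values. For Fstl1 the effects were -0.48 in tumours and -0.85 in cells on 1416221_PM_at, which did not differ by the test (0.37 ± 0.26 SE, limma adjusted p = 0.321). On 1448259_PM_at they were -0.27 in tumours and -0.60 in cells (0.33 ± 0.23 SE, limma adjusted p = 0.329). Of 10 tested member probe sets, 2 were called, both for Sparc, against 25.9% of all probe sets.

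No member passed the test under guadecitabine. Of 11 member probe sets 0 were called by limma, as were 0 of 45141 overall (0%; lowest adjusted p 0.120), while 1 member and 3079 probe sets in all (6.82%) had an unadjusted p under 0.05. Sparcl1 had 9.14, 9.55, 9.60, 10.53, 9.21 and 10.19 in guadecitabine tumours, against 9.78, 8.55, 9.13, 9.40 and 9.10 in control tumours. Of the 6 treated tumours, 5 lay above the control mean, and the ranges overlapped. The difference was 0.51 ± 0.28 (SE, limma adjusted p = 0.739).

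Sparc was spread widely in this experiment, with an SD of 0.65 in guadecitabine tumours and 0.38 in their controls. On 1416589_PM_at it had 10.41, 10.64, 10.01, 11.92, 10.88 and 10.48 in guadecitabine tumours, against 10.76, 9.73, 10.34, 10.17 and 10.04 in control tumours. Replicate 4 was the highest, near the level of OTX015-treated cells. The difference was 0.52 ± 0.30 (SE, limma adjusted p = 0.743), and 0.28 without replicate 4. On 1448392_PM_at the values were 9.14, 9.74, 8.93, 10.86, 9.82 and 9.54 in guadecitabine tumours, against 9.52, 8.49, 9.01, 9.004 and 8.79 in control tumours. Of the 6 treated tumours, 4 lay above every control. This was the member with an unadjusted p under 0.05 (0.71 ± 0.31 SE, limma p = 0.0406, adjusted p = 0.720), and it was called when all 6 groups shared 1 fit (adjusted p = 0.0484).

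Fstl1 had the largest SD of the members in guadecitabine tumours. On 1416221_PM_at it had 5.76, 6.35, 5.81, 7.59, 6.71 and 4.78 in guadecitabine tumours, against 6.75, 7.04, 7.02, 6.62 and 6.59 in control tumours. Of the treated tumours, 4 lay below every control and 1, replicate 4, above every control. The difference was -0.63 ± 0.40 (SE, limma adjusted p = 0.757), ranging from -0.92 without replicate 4 to -0.36 without replicate 6. The SD was 0.96 in guadecitabine tumours and 0.22 in control tumours. The second Fstl1 probe set showed the same spread, with 5.80, 6.19, 4.89, 7.59, 6.53 and 4.38 in guadecitabine tumours, against 6.46, 6.27, 6.74, 6.45 and 6.18 in control tumours (-0.52 ± 0.47 SE, limma adjusted p = 0.822). It ran from -0.86 without replicate 4 to -0.22 without replicate 6. Smoc1 differed by 0.05 (limma adjusted p = 0.909), and the 5 dim probe sets by 0.01 to 0.15. The OTX015 effect minus the guadecitabine effect was called for 0 of 11 member probe sets, against 4.59% of all (limma). For Sparc it was -0.47 (adjusted p = 0.283) and -0.53 (adjusted p = 0.238). On the deposited values both Sparc probe sets passed (-0.62 and -0.71, each with adjusted p = 0.0480). With 1 array left out after normalization they ran from -0.61 to -0.23 and from -0.67 to -0.30, the smallest being without guadecitabine replicate 4.

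Control tumours of the OTX015 experiment were also set against control cells, the setting in which host cells are added to the line. The 5 control tumours of the guadecitabine experiment were left out wherever this comparison is given. Sparcl1 was higher in tumours, at 8.72, 9.31 and 9.65 (lowest, median and highest of 11), against 8.41, 8.80, 8.57 and 8.61 in cells. Of the tumours, 9 lay above every cell sample, and the difference of 0.61 is given without a test. The guadecitabine controls left out ran from 8.55 to 9.78 for Sparcl1, so their lowest lay within the cell range. Sparc was lower in tumours. On 1416589_PM_at it had 9.85, 10.07 and 10.33 (lowest, median, highest) in tumours, against 10.48 to 10.62 in cells, with no overlap (-0.45 ± 0.09 SE, limma adjusted p = 0.000568). The guadecitabine controls left out had a deposited mean of 10.21 on it and ran from 9.73 to 10.76, across the cell range. On 1448392_PM_at the difference was -0.47 ± 0.15 (SE, limma adjusted p = 0.0163), which missed the threshold with all 6 groups in 1 fit (adjusted p = 0.0509).

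Fstl1 on 1416221_PM_at was lower in tumours by the test, at a mean of 6.76 ± 0.38 in tumours (SD, n = 11), against 7.40 ± 0.099 in cells (SD, n = 4; difference -0.65, limma adjusted p = 0.00937). After quantile normalization it was -0.24 (adjusted p = 0.250), and with all 6 groups in 1 fit it did not pass (adjusted p = 0.0519). The second probe set differed by -0.35 (limma adjusted p = 0.115), or by 0.05 after quantile normalization. Smoc1 was higher in these tumours, at 4.70 ± 0.15 in tumours and 4.37 ± 0.16 in cells (SD; difference 0.33 ± 0.09 SE, limma adjusted p = 0.00782). The control tumours of the guadecitabine experiment did not share this, with a deposited mean of 4.39. With all 40 arrays normalized together they had 4.27, against 4.34 in control cells. Receptor probe sets, which set the background, had a median difference of 0.20 between the OTX015 control tumours and the cells. The Smoc1 cell values lay around the background level. One Spock2 probe set, below background throughout, was also called (0.27, limma adjusted p = 0.0214). That call was lost with median centring (0.18), with quantile normalization (0.17), and without control cell replicate 2 or replicate 4. On that probe set the control tumours of the guadecitabine experiment had a deposited mean of 3.61, against 3.62 in control cells. Of 10 tested member probe sets, 5 were called (2 higher, 3 lower), against 43.1% of all probe sets (20.7% higher, 22.4% lower), and 1 did not overlap, against 24.7% of all.

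Markers of several host cell types were called higher in the tumours. Beside them, 20.2% of all named genes were called higher and 28.9% lower. All 10 macrophage markers were called higher in tumours, with a log2 summed level of 9.51 to 11.2 in tumours, against 7.02 to 7.21 in cells. Of 10 T and NK cell markers 7 were called higher, with a summed level of 7.60 to 8.24 in tumours, against 7.25 to 7.29 in cells, and 1 of the 10 lay above background. Of 4 adipocyte markers measured 2 were called higher, with a summed level of 7.09 to 9.32 in tumours, against 5.90 to 6.09 in cells. The summed levels of these 3 lists did not overlap between the groups. The keratinocyte list did not overlap either, at 6.25 to 6.53 in tumours, against 6.09 to 6.21 in cells. Of its 7 measured markers 2 were called higher, and 1 lay above background. The median difference of this list was 0.13, against 0.20 for the receptor probe sets that set the background. A higher keratinocyte level is therefore not read from it. The Schwann and nerve list went the other way, at 9.78 to 10.46 in tumours, against 10.48 to 10.78 in cells, with 2 of 2 measured markers called lower. The fibroblast list had 4 of 10 markers called higher and 2 lower, and its summed level was 8.31 to 9.32 in tumours and 8.60 to 9.15 in cells, with 3 of 10 markers above background and its defining genes Col1a1, Col1a2, Pdgfra and Fap below it. The endothelial list had 3 of 10 called higher and 0 lower by limma, with a summed level of 7.55 to 7.94 in tumours and 7.54 to 7.89 in cells, with Pecam1, Cdh5, Tek and Tie1 below background. Of 7 pericyte and smooth muscle markers measured, 2 lay above background, 5 were called higher and 1 lower. The part of these cells in the higher Sparcl1 was not tested.

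**Figure D3:**
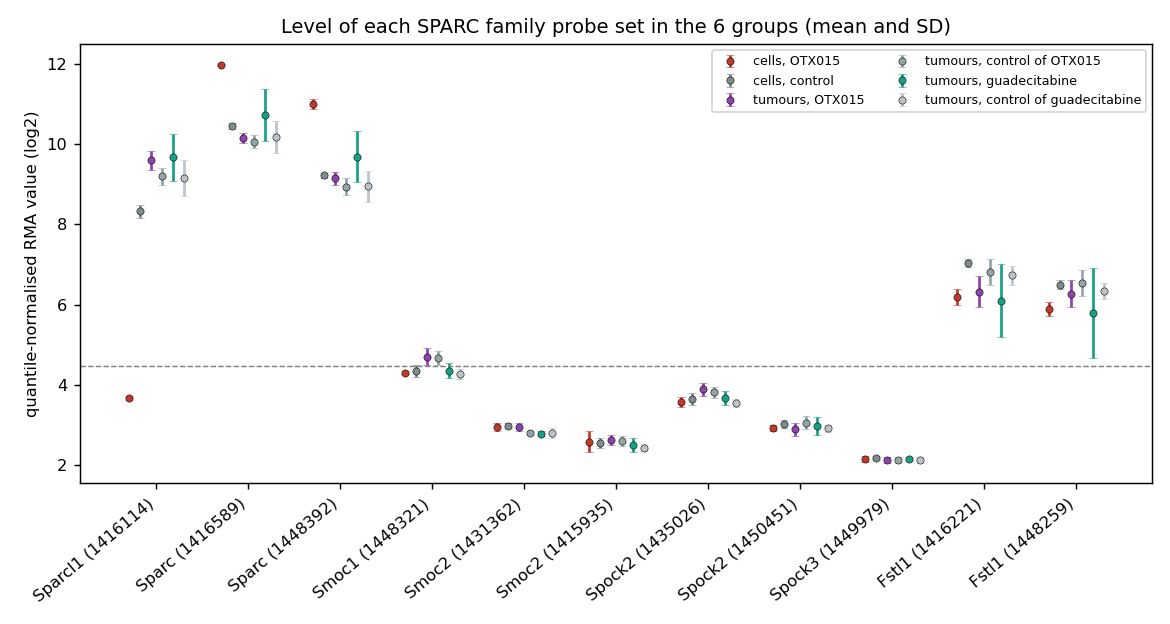
Mean and SD of each member probe set in the 6 groups after quantile normalization of all 40 arrays together (log2), in the order of the legend from left to right, with the background level dashed. Probe sets are not comparable in height with each other. Sparcl1 stands at 3.67 in OTX015 cells and between 8.33 and 9.67 in the other 5 groups.

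With all 40 arrays normalized together, the order of the group means could be set for each probe set. Sparcl1 ran from 9.67 in guadecitabine tumours through 9.59 in OTX015 tumours, 9.19 in control tumours of the OTX015 experiment, 9.16 in control tumours of the guadecitabine experiment and 8.33 in control cells to 3.67 in OTX015 cells. Neighbours were called apart where the gap between means exceeded both SDs and the ranges did not overlap. For Sparcl1 this held for the last gap alone. That gap lies between the cell groups whose values were used to choose Sparcl1, so it is a description and no support. Sparc on 1416589_PM_at ran from 11.97 in OTX015 cells through 10.72 in guadecitabine tumours, 10.44 in control cells, 10.17 in control tumours of the guadecitabine experiment and 10.14 in OTX015 tumours to 10.06 in control tumours of the OTX015 experiment. No neighbours stood apart there, since guadecitabine replicate 4 reached the range of the OTX015 cells, while on 1448392_PM_at the first gap did (11.00 in OTX015 cells and 9.68 in guadecitabine tumours). Fstl1 on 1416221_PM_at ran from 7.04 in control cells to 6.09 in guadecitabine tumours, and no neighbours stood apart. The drug-treated groups held the 3 lowest Fstl1 means on both probe sets, and no neighbours stood apart on 1448259_PM_at either.

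**Figure D4:**
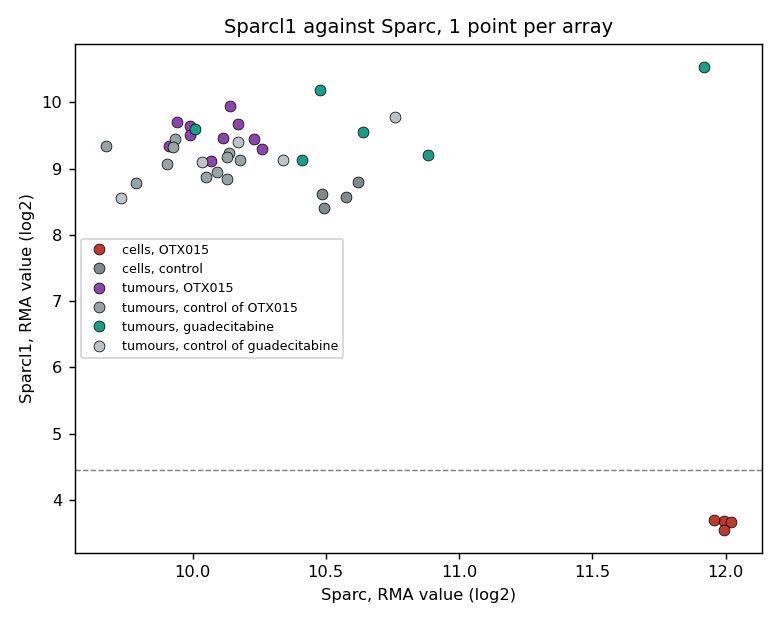
Sparcl1 against Sparc (1416589_PM_at) on each of the 40 arrays (log2 RMA value, OTX015 tumours and their controls quantile-normalized), with the background level dashed. The 4 OTX015 cell samples sit apart at the lower right, with Sparc near 12 and Sparcl1 under 3.8. One guadecitabine tumour reaches a Sparc of 11.92 with a Sparcl1 of 10.53.

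Guadecitabine replicate 4 had the highest Sparc of all tumours (11.92) together with the highest Sparcl1 (10.53). Among the 11 control tumours of the OTX015 experiment, the 2 genes had a Pearson r of -0.21 (Spearman rho -0.11; permutation p = 0.537 and 0.755). This was 1 of 26 relations computed among Sparc, Sparcl1, Smoc1, Fstl1 and the summary scores of 5 marker lists, and 0 passed Benjamini-Hochberg adjustment (lowest adjusted p 0.148; 2 at an unadjusted p under 0.05). The 2 were of Sparcl1 with the pericyte and smooth muscle score (r = -0.747, rho = -0.673, permutation p = 0.00911 and 0.0283, adjusted p = 0.148 for r) and with the macrophage score (r = -0.743, rho = -0.70, permutation p = 0.0114 and 0.0209, adjusted p = 0.148 for r). Without the 2 tumours farthest from the median score, r was -0.706 and -0.675. In the 10 OTX015 tumours the same relations had the opposite sign, with r of 0.426 and 0.645, so neither is a finding.

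The genes whose values ran most like each member over the 32 tumour arrays were found from deviations from the group means, among 8777 other genes above background. For Sparcl1 they were Hsd17b11 (r = 0.798), the TGF-beta receptor gene Tgfbr1 (0.786) and the receptor phosphatase gene Ptprm (0.781). For Sparc they were Mia3, which helps to load collagen into secretory vesicles (0.906), the calcium pump gene Atp2b1 (0.882) and the sugar dehydrogenase gene H6pd (0.877). For Fstl1 they were the RNA helicase gene Dhx30 (0.834), Cyp39a1 (0.796) and St6galnac3 (0.793), and for Smoc1 Mapk8ip2 (0.708), Mettl22 (0.703) and Dnajc6 (0.702). These are Pearson r. Spearman rho over all the genes named ran from 0.455 for St6galnac3 to 0.85 for Mia3. It was 0.633 for Dhx30 and 0.522 for Cyp39a1. Guadecitabine replicate 4 weighs on the first 3 lists: without it, r was 0.756 for Hsd17b11, 0.824 for Mia3 and 0.772 for Dhx30. These values are descriptions over arrays that share a normalization, and the genes were picked as the highest of many.

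Matricellular genes outside the family moved both ways in OTX015-treated cells. Of 21 measured, 3 were called higher and 5 lower, against 16.1% and 21% of all named genes, and their median difference was -0.04, against -0.002 for all named genes. Ccn1, a secreted integrin ligand, rose by 1.43 ± 0.07 (SE; 8.87 in OTX015 cells and 7.45 in control cells). Fbln5, an elastic fibre protein gene, fell by 1.53 on the log2 scale (7.52 in OTX015 cells and 9.05 in control cells). Ccn4, a target of Wnt signalling, differed by -1.31 (6.99 in OTX015 cells and 8.30 in control cells) and Thbs3, a thrombospondin gene, by -0.67, each by limma with adjusted p from 8.76e-08 for Fbln5 to 0.000271 for Thbs3. The other 4 calls, named after their values were seen, were Ccn2 (4.55 in OTX015 cells and 3.73, below background, in control cells) and the dim Tnr (0.17) higher, and Fbln1 (-0.70) and the dim Postn (-0.58) lower.

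In OTX015 tumours 3 of the 21 were called higher and 8 lower, against 8.93% and 7.83% of all named genes, with a median of -0.07, against 0.005 for all named genes. Ccn4 was again lower (4.62 in OTX015 tumours and 5.16 in control tumours; -0.54 ± 0.09 SE, limma adjusted p = 0.000169), as was Thbs3 (-0.29, adjusted p = 0.0102). Ccn2, a connective tissue growth factor gene, was higher (6.12 in OTX015 tumours and 5.32 in control tumours; 0.79 ± 0.18 SE, limma adjusted p = 0.00386). Tnr, below background, was also called (0.16), and Ccn5, named after its value was seen, was the third call higher (0.21, dim). Of the 8 genes called lower, 4 lie above background over all arrays and 4 below it.

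Under guadecitabine 0 of the 21 were called by limma (median 0.07, against 0.04 for all named genes). The smallest p was that of Ccn2, at 7.30 ± 0.55 in guadecitabine tumours and 6.20 ± 0.56 in control tumours (SD; difference 1.10, adjusted p = 0.665). Control tumours against control cells had 7 of the 21 higher and 3 lower, against 20.2% and 28.9% of all named genes. Tgfbi, which macrophages also express, was at 7.41 in tumours and 3.38, below background, in cells. Ccn4 was at 5.27 in tumours and 8.30 in cells, and Ccn2 at 5.44 in tumours and 3.73, below background, in cells. Thbs3 (-0.57) and, named after its value was seen, the dim Comp (-0.16) were the other calls lower.

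**Figure D5:**
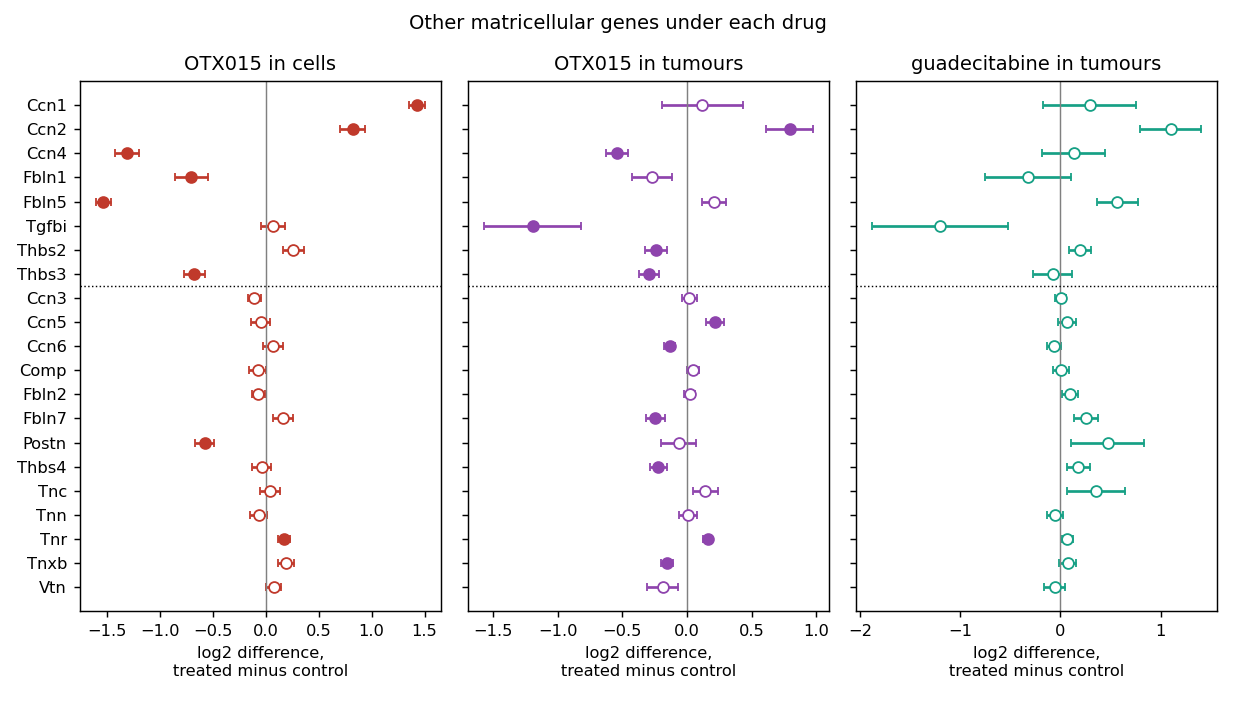
Log2 difference, treated minus control, of 21 other matricellular genes under each drug, with SE bars. Filled points passed limma at an adjusted p under 0.05. Genes above the dotted line have a mean over 40 arrays above background. In cells Ccn1 lies at 1.43 and Fbln5 at -1.53, and no guadecitabine point is filled.

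Genes for partners of the family, such as collagens, integrins and the receptors that Fstl1 is reported to use, were followed as a second list. Of 25 in OTX015-treated cells, 2 were called higher and 5 lower, against 16.1% and 21% of all named genes, with a median of 0.05, against -0.002 for all named genes. Tlr4, reported as a receptor in Fstl1 signalling, was at 4.97 ± 0.24 in OTX015 cells and 7.42 ± 0.18 in control cells (SD; difference -2.45 ± 0.12 SE, limma adjusted p = 1.7e-07). Fn1, fibronectin, was at 9.32 in OTX015 cells and 7.73 in control cells (1.58, limma adjusted p = 1.98e-05). Mmp14, a membrane collagenase gene, differed by -1.21 and the protease gene Adamts4 by 0.57. The other calls lower, named after their values were seen, were Itgb5 (-0.48) and the dim Col1a2 (-0.36) and Mmp2 (-0.36).

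In OTX015 tumours 1 of the 25 partners was called higher, the dim Vcam1 (0.17), and 2 lower, against 8.93% and 7.83% of all named genes. The integrin gene Itgb5 was at 4.86 ± 0.071 in OTX015 tumours and 5.60 ± 0.29 in control tumours (SD; difference -0.74 ± 0.09 SE, limma adjusted p = 5.54e-06). Cd14, which macrophages express, was at 6.43 ± 0.76 in OTX015 tumours and 7.48 ± 0.68 in control tumours (SD; difference -1.05 ± 0.29 SE, limma adjusted p = 0.0153). Under guadecitabine 0 of 25 were called by limma, the smallest p being that of Mmp2 (5.01 in guadecitabine tumours and 4.15 in control tumours, adjusted p = 0.683). In control tumours against control cells 10 were higher and 8 lower, against 20.2% and 28.9% of all named genes, among them Cd14 (7.59 in tumours and 3.71, below background, in cells), Itgb5 (-1.54), Itgb3 (-1.19) and Adamts4 (-0.91).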

How the data were processed

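Total RNA (500 ng per sample) from 40 samples was hybridised to Affymetrix 3' expression arrays, per the labels' protocols. The authors deposited log2 values; per the submitters' processing notes, RMA and Transcriptome Analysis Console made them. The sources used here give neither versions nor the set of arrays processed together. The precision is limited by how many arrays each group has.

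Names came from GEO's platform annotation with symbols updated through a RefSeq table of GRCm38.p6: 28898 name 1 gene, 551 several, and 15692 are unnamed here. All 45141 probe sets were fitted with limma 3.58.1 in R 4.3.3 (lmFit, eBayes, two-sided, Benjamini-Hochberg over all of them, called at an adjusted p under 0.05), on the arrays of each experiment. Deposited values were used, except in the OTX015 tumour comparison and both tests of a difference between effects, which followed quantile normalization. Correlations used 100000 permutations. The fit was tested on simulated data with independent noise, without an array-wide shift and without quantile normalization. That test does not cover the fits made after normalization. Members and lists were chosen with earlier results of these data known. All member probe sets are reported; other genes are represented by their brightest probe set, and up to 4 per list and comparison are named by smallest adjusted p. Of the 23 other matricellular genes listed, 21 were measured. Alternatives were other scalings, leaving out dim probe sets, 1 probe set per gene, a variance trend, all 6 groups in 1 fit, the replicate block and leaving out single arrays.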

Additional observations from a re-analysis of the deposited data

Results flagged for a closer look

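Sparc responded differently to OTX015 in the 2 settings. By the test of the difference itself, the effect in tumours minus that in cells was -1.45 and -1.56 on its probe sets. After quantile normalization, Sparcl1 was higher than the control mean in all 10 OTX015 tumours. It was lower than the control mean in all 4 OTX015 cell samples. The gap between the effects was 5.07 on the log2 scale. On the deposited values OTX015 tumour replicate 1, at 8.97, lay below the control mean of 9.21. The tumour difference was then 0.20 and did not pass (limma adjusted p = 0.139). The gap was not tested, and Sparcl1 was chosen by these cell values. The treated cells lay below background, and with them set to that level Sparcl1 was at least 4.14 lower in OTX015 cells.

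Single samples stood far from their group in 2 of 55 groups checked, and chance alone gives about 1 in 20. In OTX015 cells, replicate 1 had 6.41 for Fstl1 on 1448259_PM_at, with the others at 6.04 to 6.08. In OTX015 tumours, replicate 7 had 2.305 for Spock3, with the nearest at 2.162, all below background.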

How the results depend on the processing

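The counts called, of member probe sets and of the 26 correlations, stayed within 1.5 times in 145 of the alternatives and moved in 7. Counts that stayed at 0 are among the 145. With 1 probe set per gene, where fewer probe sets are tested, 2 members were called in cells and 1 for the effect in tumours minus that in cells. On deposited values 6 were called in OTX015 tumours and 4 for the OTX015 effect minus the guadecitabine effect. With all 6 groups in 1 fit, 1 was called under guadecitabine and 3 in control tumours against control cells. Leaving out 1 array, the counts were 4 in cells, 3 to 4 in OTX015 tumours, 0 under guadecitabine, 4 to 5 in control tumours against control cells, 2 for tumours minus cells and 0 for OTX015 minus guadecitabine.

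Directions turned on deposited values for OTX015 tumours (Smoc1 -0.23, Smoc2 -0.044, Sparc -0.10 and -0.0042) and for OTX015 minus guadecitabine (Fstl1 -0.054). With quantile normalization the direction turned for Fstl1 in tumours against cells (0.052). Other dim probe sets turned on deposited values for OTX015 tumours too. Deposited means were 3.71 in OTX015 tumours and 3.89 in control tumours for Spock2 (1435026_PM_at). They were 2.53 and 2.68 for Smoc2 (1415935_PM_at), and 2.05 and 2.16 for Spock3. With 1 array left out, small uncalled differences of probe sets above background crossed 0. For OTX015 minus guadecitabine, Fstl1 ran from -0.13 to 0.41 and from -0.030 to 0.59, and Sparcl1 from -0.26 to 0.048. Smoc1 ran from -0.12 to 0.0067 in cells and from -6.24e-05 to 0.067 in OTX015 tumours. Dim probe sets of Smoc2 and Spock3 crossed 0 as well. The cause was not tested.

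With the replicate number as a block, counts were 4 in cells, 3 in OTX015 tumours and 0 under guadecitabine, and 1 in control tumours against control cells. Deviations of same-numbered cell samples correlated at 0.21, -0.10, 0.02 and -0.04, and not every sample correlated best with its own number. The correlations ran from -0.519 to 0.464 in the OTX015 tumour comparison and from -0.583 to 0.0662 under guadecitabine. With so few samples, these values cannot settle whether the numbers pair the samples.

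Spock2, Spock3 and Smoc2 lie below background, so their differences are not measured levels. The guadecitabine groups have 6 and 5 arrays with a wide spread.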
